A study of Homo sapiens with 3 samples.

Results

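The genes described here encode the proteins of the cytosolic ribosome. They were chosen by symbol, as every gene named RPL or RPS followed by a number in the way the ribosomal protein nomenclature does, together with RPLP0, RPLP1, RPLP2 and RPSA, and without pseudogenes and genes of chromosome Y. The rule found 84 of the 22894 genes measured, and it used no measured value. Of the 84, 77 are core genes (46 of the large subunit and 31 of the small subunit) and 7 are paralogues, which are second genes for a ribosomal protein: RPL3L, RPL7L1, RPL10L, RPL22L1, RPL26L1, RPL39L and RPS27L. FAU and RACK1 (listed as GNB2L1), which also encode proteins of the ribosome, do not follow the naming and are given beside the members, as is RPL36AL, the partner of RPL36A.

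RNA was sequenced from MDA-MB-231, an established human breast cancer cell line of mesenchymal character whose labels add R280K, the p53 change this line is known for. All 3 libraries belong to 1 group, cells given a control siRNA, and the labels call them biological replicates. Titles and characteristics name the control siRNA as siCtrl, whereas the deposited columns carry siCQ; groups were taken from the titles, and what siCQ stands for is not given in the sources used here. Each culture received 50 nM siRNA with a lipid reagent in 2 rounds separated by 24 h, and cells were processed 48 h after the last round. No untransfected or silenced cells are used here, so the libraries describe transfected control cells only. Every p-value below measures only the spread between these libraries. Each culture gave 1 library, so differences between cultures cannot be told apart from those of library preparation or sequencing.

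A ribosome consists of a large and a small subunit, each built of ribosomal RNA and a set of proteins that, apart from the stalk proteins, are present as a single molecule each. The small subunit decodes the messenger RNA and the large subunit joins the amino acids. Messenger RNAs of ribosomal proteins are among the most abundant of a growing cell, and many begin with a C followed by a run of C and T, called a 5′ terminal oligopyrimidine tract, through which mTOR signalling and LARP1 regulate their translation. Proteins that are not built into ribosomes are generally degraded, and free RPL5 and RPL11 can bind MDM2, the ligase that controls p53.

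The gene counts of the 3 replicates added up to 68841718, 85103776 and 54655985. Levels of genes are given as TPM (counts divided by transcript length and scaled to the same sum in every library), as mean ± SD over the 3 libraries (n = 3), unless CPM (counts scaled to a library of equal size, with no length correction) is named. The label of the cell line was set against its markers. VIM, the mesenchymal intermediate filament, was at 4579 ± 164 TPM AXL at 516 ± 37.1 TPM and CD44 at 149 ± 3.09 TPM. The epithelial keratins KRT8 and KRT18 were at 795 ± 43.9 and 579 ± 33.3 TPM, whereas the estrogen receptor gene ESR1 was at 0.0204 ± 0.00812 TPM, PGR at 0.0528 ± 0.00126 TPM and ERBB2 at 26.6 ± 1.56 TPM. Of the markers of other cell types, PTPRC (leukocytes) was at 0.451 ± 0.189 TPM, PECAM1 (endothelium) at 0.932 ± 0.156 TPM and COL1A1 (fibroblasts) at 5.61 ± 0.691 TPM, and DCN had a count of 0 in every library.

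All 77 core genes were detected at 1 CPM or more in each library, and they lay close together at a high level. Their median level was 1778, 1809 and 1789 TPM in replicates 1, 2 and 3, against a median of 22.0, 21.7 and 22.2 TPM over the 12726 genes that reached 1 CPM in each library. The core genes held 14.0% ± 0.253 of the summed TPM and 5.15% ± 0.127 of the gene counts. Of the 77, 48 were among the 100 genes of highest TPM, but only 13 among the 100 of highest CPM. The difference between the shares by TPM and by counts comes from the division by length. Over all 84 members the median log2(TPM + 1) was 10.70, 10.72 and 10.71 in the 3 libraries.

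The stoichiometry of the messenger RNAs was narrow beside that of other genes, though not equal. The SD of log2(TPM + 1) over the 77 core genes was 0.94 in each library, against 2.03 ± 0.00401 over all genes at 1 CPM. The gene at the 90th percentile was 3.19 ± 0.0608 times as high as the gene at the 10th percentile, against 52.1 ± 0.455 times over all genes at 1 CPM. Of the 77 core genes, 68 lay within 2-fold of the core median, 2 lay more than 2-fold above it (RPS18 and RPLP0) and 7 more than 2-fold below it. The order of the genes was nearly the same in every library, with Spearman's rho across the 77 genes of 0.996, 0.992 and 0.996 for the 3 pairs of libraries. These points share gene lengths and annotation, and genes are not independent replicates.

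**Figure D1:**
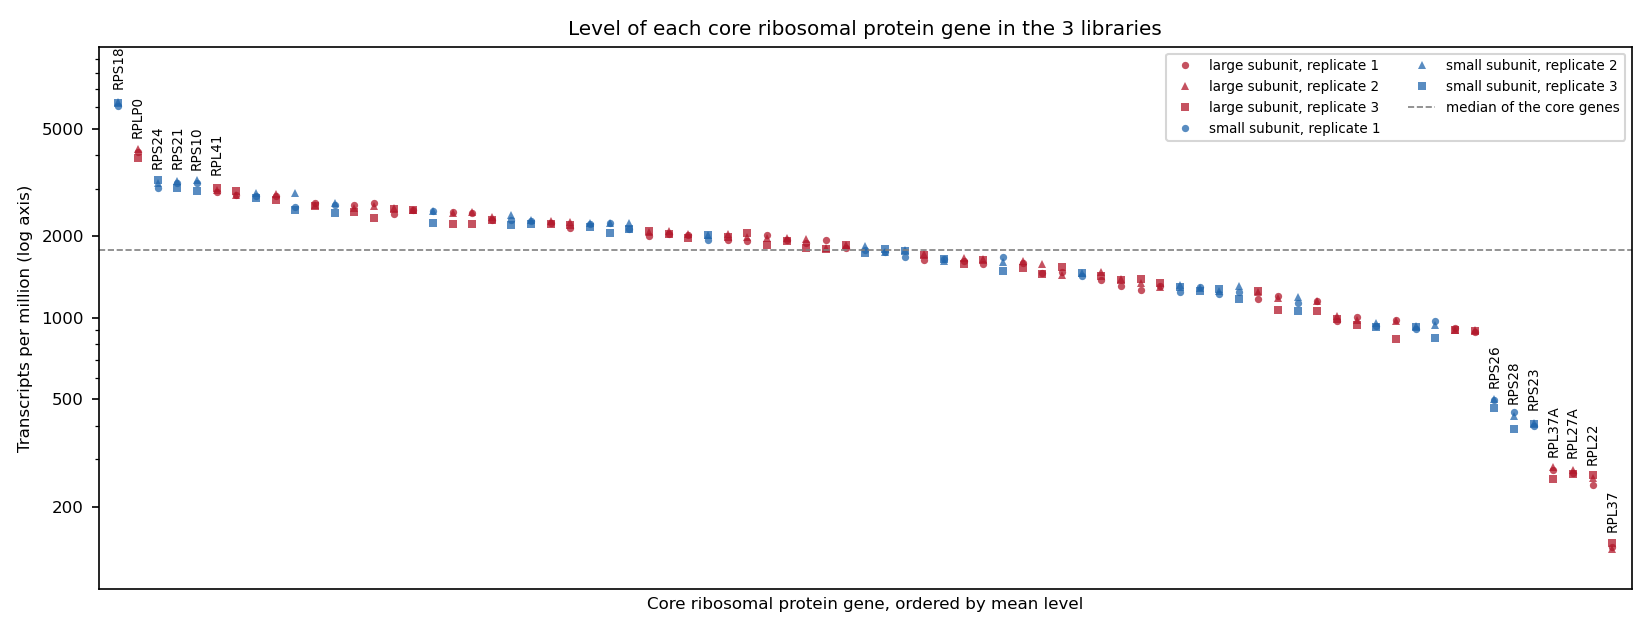
Level of each of the 77 core ribosomal protein genes in TPM (log axis), ordered by mean level. Each gene has 3 points, 1 per library, coloured by subunit, the highest and lowest genes are named, and the dashed line is the median of the gene means. Most genes lie within 2-fold of the line, RPS18 and RPLP0 lie above that range and 7 genes form a step below it.

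The large and the small subunit were represented at nearly the same level. The median TPM was 1828 ± 21.7 over the 46 large-subunit genes and 1765 ± 10.9 over the 31 small-subunit genes. The difference of the medians on the log2(TPM + 1) scale was 0.08, 0.05 and 0.03 in replicates 1, 2 and 3. Its sign depended on the scale: it was -0.09 on log2(CPM + 1), -0.05 with the lengths of the transcripts matched by accession and -0.02 with RPL36A taken from its own record. No order of the subunits can be drawn from these libraries.

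RPS18, a protein of the head of the small subunit, had the highest level of the core genes, with 6073, 6248 and 6188 TPM in replicates 1, 2 and 3. This value rests on how the gene is listed. RPS18 lies in the major histocompatibility region, for which hg19 holds alternative haplotypes, and its record is listed in 6 copies whose counts were summed. In replicate 1 the copies held 24349, 24198, 24825, 23716, 23603 and 616 counts. Replicate 2 gave 30766, 30969, 30763, 31365, 31546 and 754, and replicate 3 gave 19473, 19643, 19442, 19332, 19476 and 556. Copies 1 to 5 thus held nearly equal counts in every library, the last held few, and the copy with the most counts differed between libraries. Taken by the largest copy alone, RPS18 was at 1272, 1260 and 1257 TPM, which is place 57 of the 77 core genes and 0.710 times the core median. The sum was 4.89 times the largest copy. Whether each read was counted in 1 copy or in several is not stated, so both values are given and the level of RPS18 is uncertain to that extent.

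**Figure D2:**
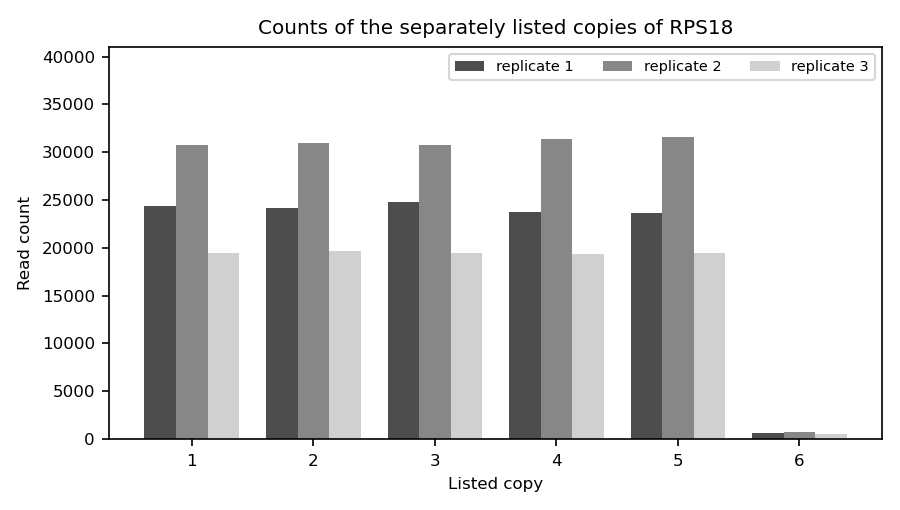
Read counts of the 6 separately listed copies of RPS18, with 1 bar per library. Copies 1 to 5 hold nearly equal counts in each library and copy 6 holds 556 to 754.

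RPLP0, the base of the stalk through which the large subunit recruits elongation factors, followed with 4108, 4210 and 3889 TPM. It needed no summing of copies and had the highest read count of the members, 163031, 209088 and 122286. The next 4 genes were RPS24 (3127 ± 110 TPM), RPS21 (3126 ± 88.6 TPM) and RPS10 (3104 ± 146 TPM) of the small subunit and RPL41, the smallest protein of the large subunit (2970 ± 60.5 TPM). RPS24, RPS21 and RPS10 differed among themselves by less than the spread between libraries. A record of RPS10 joined to NUDT3, listed under NUDT3, held 62414, 80095 and 46734 counts. That was more than the 60092, 77474 and 44689 of RPS10 itself, so reads of the shared exons cannot be assigned between the pair.

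The proteins RPLP1 and RPLP2, which bind to RPLP0 as dimers and form the arms of the stalk, were lower than RPLP0. RPLP1 was at 1011, 981 and 943 TPM and RPLP2 at 1942, 1809 and 1795 TPM. RPLP2 was the higher in each library, and the log2 ratio of RPLP1 to RPLP2 was -0.92 ± 0.0316. This difference came from the lengths used, 1197 nt for RPLP1 and 637 nt for RPLP2. Their coding lengths are 342 and 345 nt, and per coding length they stood at 1746 ± 66.9 and 1740 ± 81.1 TPM, with a log2 ratio of 0.0049 ± 0.0316, less than the spread between libraries. RPLP0 was 1.52 ± 0.0427 times as high as RPLP1 and 1.53 ± 0.0768 times as high as RPLP2 per coding length, and 4.16 ± 0.117 and 2.20 ± 0.111 times per transcript length.

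The 6 lowest core genes by TPM were RPL37 (143 ± 3.56 TPM), RPL22 (253 ± 11.3 TPM), RPL27A (269 ± 4.83 TPM), RPL37A (274.5, 282 and 253 TPM), RPS23 (404 ± 5.93 TPM) and RPS28 (424 ± 31.0 TPM). RPS26, at 496, 500.1 and 464 TPM, came next, and RPL4 (894 ± 7.41 TPM) followed after a gap. Most of the low places were tied to long annotated transcripts. The lengths used were 7686 nt for RPL37, 4916 nt for RPL27A, 3647 nt for RPL37A and 3437 nt for RPS23, although these proteins need only 291, 444, 276 and 429 nt of coding sequence. Per coding length RPL37 rose to place 10 of 77, RPL37A to place 15, RPS23 to place 21, RPL27A to place 30 and RPS28 to place 38.

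RPS26 and RPL22 were low on both length scales. RPS26, a protein at the messenger RNA exit of the small subunit, was the lowest core gene per coding length, with 448 ± 19.8 TPM against a core median of 1360 ± 43.5 TPM. The core median was 3.04 ± 0.0445 times RPS26 per coding length and 3.69 ± 0.148 times per transcript length. RPL22, a large-subunit protein on the ribosome surface, was at place 75 per coding length (698 ± 28.9 TPM). RPS15, a protein of the small subunit, had place 76 on that scale (551 ± 43.9 TPM) and place 68 per transcript length. At the other end, RPL41 led per coding length (9469 ± 162 TPM), but its coding sequence of 75 nt is shorter than the 100 bp reads. RPL39, with a coding sequence of 153 nt, had place 3 on that scale (3341 ± 78.1 TPM) and place 15 per transcript length.

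**Figure D3:**
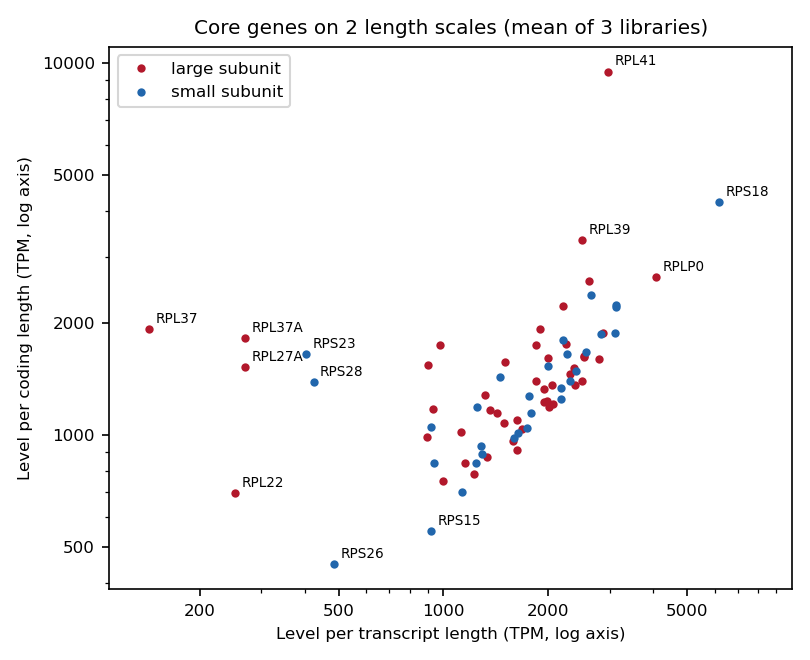
Mean level of the 77 core genes per transcript length (x axis) and per coding length (y axis), both in TPM on log axes and coloured by subunit. RPL37, RPL37A, RPL27A, RPS23 and RPS28 lie far to the left of genes of the same height, RPS26 is low on both axes, and RPL41 stands above the rest on the y axis.

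The 2 scales agreed only in part. Across the 77 core genes Spearman's rho between level per transcript length and level per coding length was 0.63, and that between TPM and the transcript length itself was -0.43. Per coding length 72 of the 77 genes lay within 2-fold of the median, against 68 per transcript length, and the ratio of the 90th to the 10th percentile was 2.60 ± 0.0423.

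Members with known roles outside the ribosome, or with known modifications, lay on both sides of the core median. RPL5 was at 2008, 2067 and 2096 TPM and RPL11 at 1310, 1295 and 1349 TPM; these proteins form a complex with 5S ribosomal RNA. RPS6, the small-subunit protein phosphorylated by S6 kinases, was at 1226, 1252 and 1275 TPM. RPSA, also known as the laminin receptor, was at 1242, 1313 and 1170 TPM. RPS27A, which is made as a fusion with ubiquitin, was at 1932, 2027 and 2029 TPM. RPL5 (place 28 of 77) and RPS27A (place 31) lay above the core median, and RPL11 (place 54), RPS6 (place 57) and RPSA (place 58) below it, all within 2-fold.

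The subunits outside the naming rule lay in the same range. RACK1, a scaffold on the small subunit, was at 1828 ± 66.4 TPM, and FAU, a fusion of a ubiquitin-like protein and a small-subunit protein, was at 1065 ± 13.8 TPM.

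The core genes stood far above the proteins of the mitochondrial ribosome and the factors that build ribosomes. The median of the 76 nuclear genes named MRPL or MRPS was 67.0 ± 1.18 TPM, and the core median was 26.8 ± 0.542 times as high (19.7 ± 0.788 times per coding length). The mitochondrial genes ran from MRPL50 (9.88 ± 1.39 TPM) to MRPL52 (271 ± 10.5 TPM). Their SD of log2(TPM + 1) was 0.98 ± 0.0173, close to the 0.94 of the core, while their 90th percentile was 5.93 ± 0.308 times the 10th. The 32 ribosome biogenesis genes had a median of 73.5 ± 2.80 TPM, from WDR12 (9.29 ± 0.280 TPM), a ribosome assembly factor, to EIF6 (538 ± 29.01 TPM), which keeps new large subunits from joining small ones. The 15 translation genes known for pyrimidine tracts had a median of 596 ± 37.0 TPM, from EIF3H (127 ± 2.89 TPM), a subunit of an initiation factor, to the elongation factor EEF1A1 (11905 ± 290 TPM), above every ribosomal protein gene.

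The start sites of the members were compared in the promoter windows of RefSeq (GRCh38.p14), which run from 250 bases before to 50 bases after each annotated start. They cover 67 of the 84 members, 62 of them core genes. The tract was searched on the gene's strand as a C exactly at the start followed by 4 or more bases that are each C or T. At least 1 annotated start fitted in 46 of the 62 core genes (74.2%), 28 of 38 of the large and 18 of 24 of the small subunit. Of all 27305 genes in the table, 5.14% had such a start, and of the mitochondrial ribosomal protein genes 6 of 69 (8.70%). Of the 10 translation genes that the table holds, 9 had one. That list was chosen for known tracts, so its share is no independent comparison. Allowing the tract to begin up to 5 bases on either side of the start gave 53 of the 62 core genes (85.5%) and 25.2% of all genes.

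Windows of 30 bases, 15 before and 15 from the start, are shown for the 3 highest core genes, for the low gene RPS26 and for pairs of a core gene and its partner, since they show the tract and where it is missing. Capitals mark the C at the start and the run of C and T that follows it, and a sequence with no capitals has no such tract at that start. The gene's strand is given as + or - and sequences read 5′ to 3′.
RPS18 (chr6:33272060-33272089, +): cgcgtcacttccgctCTCTCTTCCacagga
RPLP0 (chr12:120201097-120201126, -): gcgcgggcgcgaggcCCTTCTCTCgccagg
RPS24 (chr10:78033848-78033877, +): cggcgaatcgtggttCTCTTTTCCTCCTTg
RPS26 (chr12:56041903-56041932, +): gagacacataacctcgattttcttccgcca
RPL22 (chr1:6199581-6199610, -): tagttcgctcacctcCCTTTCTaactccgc
RPL22L1 (chr3:170870181-170870210, -): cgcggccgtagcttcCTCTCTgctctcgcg
RPL26 (chr17:8383179-8383208, -): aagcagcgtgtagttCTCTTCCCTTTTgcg
RPL26L1 (chr5:172958714-172958743, +): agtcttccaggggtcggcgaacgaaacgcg
RPL36A (chrX:101390996-101391025, +): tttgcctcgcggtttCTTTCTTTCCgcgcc
RPL36AL (chr14:49620612-49620641, -): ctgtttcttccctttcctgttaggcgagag
RPS27 (chr1:153990747-153990776, +): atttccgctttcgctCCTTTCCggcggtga
RPS27L (chr15:63157463-63157492, -): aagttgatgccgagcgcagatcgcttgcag
RPL10 (chrX:154398362-154398391, +): caggcggaggagcgcCTCTTTCCCTTCggt
RPL10L (chr14:46651767-46651796, -): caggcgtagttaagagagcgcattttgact

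The tract ran for 5 to 19 bases in the 46 core genes, with a median of 8. It was 9 bases in RPS18 and RPLP0 and 14 in RPS24, and the longest stood at RPL39. Of the 5 paralogues in the table, RPL22L1 alone had a tract, of 6 bases, while RPL7L1, RPL10L, RPL26L1 (at both of its annotated starts) and RPS27L had none. RPL36AL had none either, and the window shown for RPL10 is 1 of 3 annotated starts and the only one that fitted.

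The 16 core genes without a fitting start were RPL3, RPL4, RPL6, RPL9, RPL10A, RPL15, RPL17, RPL19, RPL27, RPL32, RPS4X, RPS7, RPS15, RPS26, RPS28 and RPS29. Their median was 1660 TPM, against 1867 TPM for the 46 core genes with a tract. The ranges overlapped, from 424 to 2650 TPM without and from 253 to 6170 TPM with a tract. A missing match says only that these letters are not at the annotated start.

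Other short motifs were counted in the whole 300-base windows on both strands. None of these motifs holds another. CCGGAAG, a core of the sites of ETS factors, was in 22 of the 62 core genes (35.5%), in 43.5% of the mitochondrial ribosomal protein genes and in 12.2% of all genes. TATAAA was in 5 of 62 (8.06%), against 14.0% of all genes, and GGGCGG, a core of the sites of SP factors, in 36 of 62 (58.1%), against 48.3%. AAGATGGCG, a core of the sites of YY1, was in 5 of 62 (8.06%), against 2.14% of all genes. Of the 69 mitochondrial ribosomal protein genes, 13 (18.8%) held AAGATGGCG, a larger share than in the core. GGGCGG was in 60.9% of them and TATAAA in 4.35%. These matches are descriptions of sequence and not measured sites of binding.

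The paralogues were low beside their partners, and the 7 together held 0.0279% ± 0.000762 of the summed TPM. RPL3L, the form of RPL3 known from skeletal and heart muscle, had a count of 0 in every library. With a floor of 3 counts per library, RPL3 (1594, 1617 and 1531 TPM) was at least 28752-fold higher in each. RPL10L, the retrogene of RPL10 known from the testis, had counts of 0, 2 and 0. Its 2 counts put RPL10 76363 times as high per transcript length over the 3 libraries together (95% exact Poisson interval 21139 to 630552, counting error only). The interval treats the 2 counts as independent. Both were in replicate 2, and each pair of reads may have been counted as 2. If they came from the same pair, the interval is too narrow.

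RPL22 and RPL22L1 encode alternative versions of a surface protein of the large subunit. RPL22 was at 240.4, 256 and 262 TPM and RPL22L1 at 29.4, 29.9 and 32.9 TPM. RPL22L1 was the lower in every library and made up 10.9%, 10.5% and 11.1% of the pair. The log2 ratio was 3.04 ± 0.0523 per transcript length and 2.90 ± 0.0523 per coding length. Among the pairs with long transcripts this ratio depended little on the scale, since both genes have long transcripts (2078 and 2190 nt).

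RPL26 and its paralogue RPL26L1 lay further apart. RPL26 was at 1928, 1988 and 2049 TPM and RPL26L1 at 81.7, 88.8 and 77.3 TPM. RPL26L1 made up 3.99% ± 0.326 of the pair, and the log2 ratio was 4.59 ± 0.125 (4.23 ± 0.125 per coding length).

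RPL39, a small protein at the exit of the peptide tunnel, was at 2428, 2542 and 2531 TPM. RPL39L, which is known from male germ cells and some cancers, was at 56.4, 55.8 and 53.0 TPM and was the lower in every library. RPL39 was 45.4 ± 2.37 times as high per transcript length and 27.9 ± 1.45 times per coding length. RPL39L made up 2.16% ± 0.110 of the pair per transcript length.

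RPS27 was at 2273, 2306 and 2214 TPM, and RPS27L, which is known as a target of p53, at 9.34, 10.3 and 10.1 TPM. The ratio of 229 ± 12.7 per transcript length is carried by a transcript of 6434 nt for RPS27L. Per coding length, 252 nt in both genes, the ratio was 12.8 ± 0.711. RPS27L was the lower in every library on both scales.

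RPL7L1, whose protein is known from ribosome assembly, was the highest paralogue, with 103, 101 and 97.7 TPM. RPL7 was at 972, 1019 and 993 TPM, 9.88 ± 0.399 times as high per transcript length and 2.97 ± 0.120 times per coding length. The length used for RPL7L1 was 3769 nt, for 765 nt of coding sequence.

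RPL36A and RPL36AL encode nearly identical proteins of the large subunit. RPL36A was at 1946, 2042 and 1982 TPM and RPL36AL at 407, 426 and 422 TPM, which made up 17.4% ± 0.168 of the pair. The record with the most counts under RPL36A (35640, 46788 and 28752) matched the readthrough transcript RPL36A-HNRNPH2 by accession. RPL36A's own record held 30232, 39950 and 23839 counts, which gave 1072 ± 35.6 TPM. With that record RPL36A was 2.56 ± 0.0687 times as high as RPL36AL, against 4.76 ± 0.0555 times by the rule. The length used changed with the record, from 562 nt by the rule to 881 nt. The size of this ratio thus depends on the record and on the length that goes with it.

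**Figure D4:**
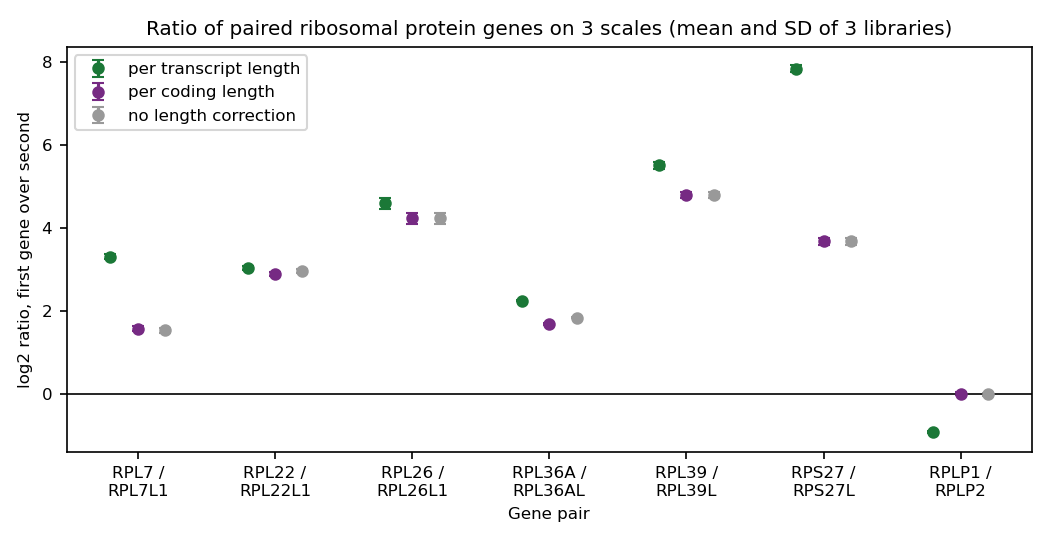
The log2 ratio of the first to the second gene of 7 pairs, per transcript length, per coding length and with no length correction, as mean and SD over 3 libraries. RPL22, RPL26, RPL36A, RPL39, RPL7 and RPS27 are above their partners on all 3 scales, with RPS27 and RPL7 moving most, while RPLP1 and RPLP2 differ only per transcript length.

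Processed pseudogenes are intronless copies of messenger RNA and share most of their sequence with the parent gene. Of 28 listed pseudogenes of members, 2 held 10% or more of their parent's count. RPL13AP5 had 93933, 114831 and 72352 counts beside 102239, 125442 and 79065 for RPL13A, between 91.5% and 91.9%. RPL21P28 had 25536, 33658 and 22066 counts and RPL21 had 25536, 33659 and 22066, a difference of 1 count in 1 library. The next were RPSAP9 (874 counts on average), RPL23AP53 (478) and RPL23AP82 (372), each under 2% of its parent. Levels of RPL13A and RPL21 are therefore uncertain, since reads shared with the copy cannot be told apart.

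Records of 1 gene mostly repeated each other. Of the 27 members with several records of their own, 19 had a lowest record of at least 0.9 times the highest. The widest differences were in RPL15, whose records summed over libraries to between 80821 and 158544 counts, and in RPL28, from 64382 to 112430.

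The members were the same to within a few percent in the 3 libraries, but their high counts made such differences detectable. Between the lowest and the highest library the 82 tested members differed by 1.07-fold at the median and by 1.19-fold at most, in CPM scaled with edgeR's TMM factors. Against counting noise alone (edgeR intercept-only fit, chi-square with 2 degrees of freedom, Benjamini-Hochberg adjustment over 14521 genes), 79 of 82 members varied, where 52.9% of all genes tested did. Among genes at 100 CPM or more the counts were 76 of 78 members and 86.4% of genes, which is the nearer background for genes of such depth. RPL3L and RPL10L were too low to be tested. Each pair of reads may have been counted as 2, and with every pair counted once 72 of 82 members varied, against 28.4% of all genes (71 of 78 and 70.8% at 100 CPM or more). In the lists beside the members, 12 of 15 translation genes, 27 of 32 biogenesis genes and 46 of 76 mitochondrial ribosomal protein genes varied with all counts.

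When a coefficient of variation of 0.05 between libraries was allowed, 0 of 82 members passed the edgeR-based test, against 1.14% of all genes. In that test 1 member had an unadjusted p under 0.05. The median coefficient of variation of the members was 3.49%, and the common variation between libraries over all genes was estimated by edgeR as a coefficient of 0.0544.

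The members that varied most were not the most abundant. RPL28, a large-subunit protein, had 562, 564 and 474 CPM in replicates 1, 2 and 3, a 1.19-fold range (edgeR adjusted p = 8.98e-64 with each pair counted once). It was low in replicate 3. RPS29, a zinc-binding protein of the small subunit, had 361, 409 and 348 CPM, a 1.17-fold range (edgeR adjusted p = 8.27e-42 with each pair counted once), and was high in replicate 2. RPS15 had 237, 231 and 202 CPM and RPS28 had 283, 276 and 243 CPM, both low in replicate 3. RPL26L1 had 26.4, 28.9 and 24.7 CPM (edgeR adjusted p = 0.0131 with each pair counted once).

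The most even member was RPS7, a small-subunit protein, with a range of 1.01-fold and an edgeR adjusted p of 0.784. RPL39L (edgeR adjusted p = 0.232) also did not pass. RPL11 passed with all counts (edgeR adjusted p = 0.0137) but not with each pair counted once (edgeR adjusted p = 0.179), whereas RPL5 passed both ways (edgeR adjusted p = 3.15e-06 with each pair counted once) with a range of 1.04-fold.

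On the scale of TMM-scaled CPM the members were, as a group, highest in replicate 2 and lowest in replicate 3. Their median deviation from the mean of the 3 libraries was -0.0066, 0.04 and -0.04 on the log2 scale, where the medians of all genes tested were -0.00081, 0.0023 and 0.0024. Replicate 2 was the highest library for 58 of 82 members, and replicate 3 the lowest for 49. The members' share of gene counts had the same order, at 5.16%, 5.31% and 5.06%. Per transcript length the order depended on the summary taken. The median over the core genes, 1778, 1809 and 1789 TPM, was highest in replicate 2 and lowest in replicate 1. The core's share of the summed TPM, 13.97%, 14.25% and 13.75%, was highest in replicate 2 and lowest in replicate 3. The median over the large-subunit genes, 1848, 1830 and 1805 TPM, was highest in replicate 1 and lowest in replicate 3.

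The deviations in replicates 1 and 3 went with the base composition of the transcripts, and those in replicate 2 less so. Spearman's rho with GC content across the 82 members was 0.77 in replicate 1, 0.26 in replicate 2 and -0.70 in replicate 3. Across the 14352 genes tested that had a GC value it was 0.40, 0.25 and -0.51. These correlations are across genes of the same libraries, and the 3 deviations of a gene sum to about 0. The 17 members with a GC content of 55% or more had a median deviation of 0.05, 0.05 and -0.11 in replicates 1, 2 and 3, and all 17 lay below the mean in replicate 3. The 46 members under 50% GC had medians of -0.03, 0.04 and -0.0061, and 27 of them lay below the mean in replicate 3. RPL28 has a GC content of 58.9%, RPS15 of 61.6% and RPS28 of 53.8%, whereas RPS29, with 45.9%, was low in GC. With offsets for GC content and length and each pair counted once, 56 of 82 members still varied, against 13.3% of all genes. That background is not matched for read depth. With these offsets no share is given for genes at 100 CPM or more, so the gap cannot be read as a trait of the members. The part of base composition in the variation of single members was not tested further.

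**Figure D5:**
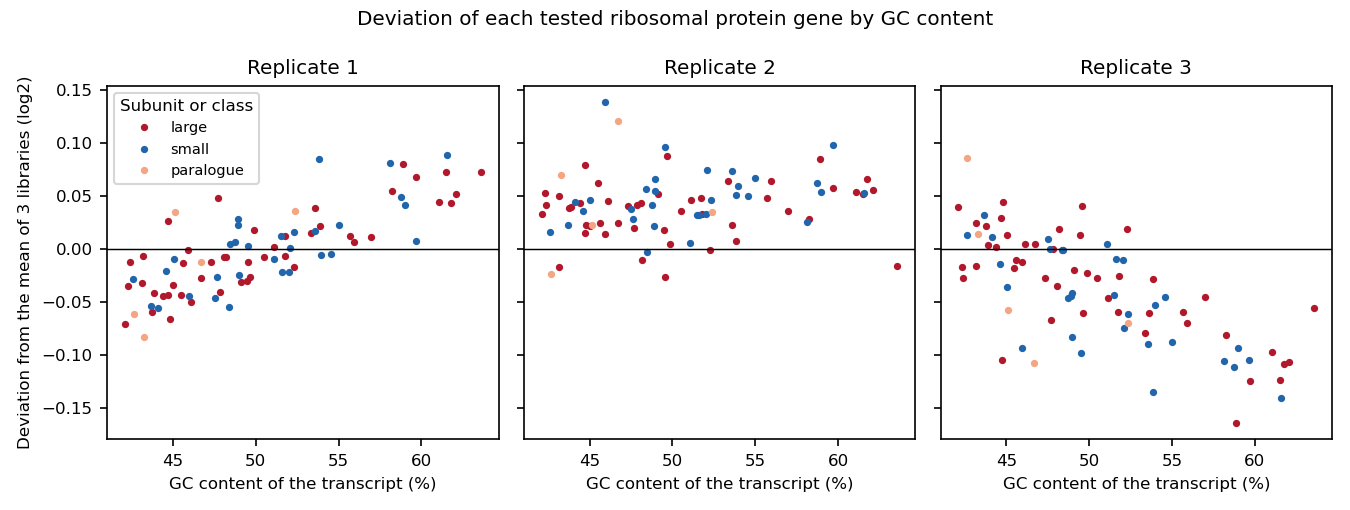
Deviation of each of the 82 tested members from its mean over the 3 libraries (log2) against the GC content of its transcript (%), in 1 panel per library and coloured by subunit or class. Members of high GC content lie above 0 in replicate 1 and below 0 in replicate 3, and RPS29 is the highest point in replicate 2.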

How the data were processed

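RNA libraries of 3 MDA-MB-231 control siRNA cultures were analysed. The deposited values are raw counts per RefSeq record. The submitters' processing notes name FastQC, TopHat2, Cufflinks and hg19; versions, the counting tool, strand and the handling of multiple hits are not given in the sources used here. A gene's count was its largest record after summing copies of that record, over 42269 records. Of 6937 unnamed records 619 matched no gene and were left out (0.952%, 0.959% and 0.944% of record counts). TPM used, from GENCODE 29, the shortest transcript of a gene with the coding length of the transcript matched by accession (98.5% of genes with a count). Members and lists were chosen with earlier results of these data known.

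Variation was tested with edgeR 4.0.16 (TMM, filterByExpr, dispersion 0) in R 4.3.3, called at an adjusted p of 0.05, with DESeq2 1.42.0 size factors as an alternative, and tested on simulated data. Summaries used Python 3.11.15, pandas 2.3.3 and scipy 1.17.1. Genes named are the 6 highest and 6 lowest core genes, both genes of each of 9 pairs, 9 genes of known role, the 5 members of widest range at 10 CPM or more, the extremes of the other lists and the 5 highest pseudogenes. Others, such as RPL4, RPL15 and RPS7, were chosen after their values were seen. Some genes enter the counts and medians but are not reported singly here. Lengths other than the first and the choice of record for RPL36A were compared after seeing the data. Gene coordinates of the files are in hg19 and are not printed; start windows are RefSeq's in GRCh38.p14. Among the members, depth left RPL3L and RPL10L untested; markers near 0, such as ESR1 and PTPRC, are also imprecise.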

Additional observations from a re-analysis of the deposited data

Results flagged for a closer look

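Some records listed under a member's symbol matched another gene by accession, held more than 3 counts and entered no level above. The largest of these were readthrough records. RPL17-C18orf32, under RPL17, held 33501, 44362 and 27754 counts, beside 35524, 46798 and 29360 for RPL17's own record. Reads of their shared exons cannot be assigned between the pair. A further RPL36A-HNRNPH2 record under RPL36A held 29244 counts on average. A pair of records under RPL36A matched HNRNPH2 and held 7596 and 7522 counts on average over the 3 libraries. A record under RPL27 matched the zinc finger gene ZNF19, with 188 counts on average. Small nucleolar RNAs were listed under their host genes: SNORA70 under RPL10 with 177 counts on average, SNORA64 under RPS2 with 26.3, SNORA7A under RPL32 with 24.7 and SNORA6 under RPSA with 17.7. All 3 libraries are of the control siRNA, so these counts have no other group to be set against, and a group of 3 is too small for a check for outlying samples.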

How the results depend on the processing

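No paired analysis was possible because there is only 1 group. The median log2 level of the members, 10.71 ± 0.013, was 9.11 in CPM, 10.11 with counts summed over records, 10.73 with pseudogene counts added, 10.65 with accession-matched lengths, 10.34 per coding length, 10.81 with the read length subtracted and 10.69 with RPL36A's own record. The spread of the core, an SD of 0.94, was 0.71 in CPM, 1.33 over summed records, 0.91 by the largest copy, 0.96 with pseudogenes, 1.04 with accession-matched lengths, 0.64 per coding length and 1.001 with the read length subtracted. The large minus small difference of 0.05 turned to -0.087 in CPM, -0.051 with accession-matched lengths and -0.020 with RPL36A's own record, and was 0.13 over summed records, 0.15 by the largest copy and 0.093 with pseudogenes. The members' share of gene counts, 5.18% ± 0.127, was 4.54% over summed records and 5.35% with pseudogenes. The number of varying members, 79, fell to 0 when a coefficient of variation of 0.05 was allowed; DESeq2 size factors and no filter on low counts gave 79 too. Leaving out each library in turn gave 56 to 69 varying members, a median of 10.70 to 10.72, a spread of 0.9416 to 0.9430, a difference of 0.04 to 0.06 and a share of 5.11% to 5.24%. Of 56 alternative values of the pair ratios 1 changed sign, RPLP1 to RPLP2 per coding length (0.0049), 38 stayed within the SD between libraries and 17 moved beyond it. Most of the 38 could not have moved. Leaving out 1 of 3 libraries always shifts a mean by less than the SD. Many other settings left the counts and lengths of a pair as they were. The count of 38 is therefore no measure of robustness. Where lengths are swapped, the alternative itself sets the change; otherwise the cause was not tested.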
